A study of Drosophila melanogaster with 4 samples.

Results

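This comparison asked what changed at the ends and in the levels of miRNAs when Drosophila S2 cells without the gene for Nibbler (Nbr) were given the NbrCTD construct. Of 495 rows in the deposited table, each a 5′ isoform of a miRNA arm, 304 held values both for nbrKO and for NbrCTD, and these were joined into 294 arms. Tailed share is the percentage of reads that carry an untemplated 3′ tail. Only reads of an arm's leading 5′ isoform, the row given, were counted. It was measured wherever both libraries had at least 100 reads of that isoform, which left 117 arms. The other 177 arms were shallower, with medians of 9 reads in nbrKO and 6 with NbrCTD, and the 117 held 99.961% and 99.979% of the joined reads.

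S2 cells are a line of embryonic origin with macrophage-like properties. The study made 4 small RNA libraries from them, 1 per group, and nothing below is checked by a replicate. In every group, controls included, Nbr had been removed by CRISPR-Cas9. By its label the nbrKO group carries no construct, and the others were stably transfected with a construct driven by Act5C, a ubiquitously active actin promoter: NbrCTD, Nbr(wt) or NbrCTD-GWp. The sample titles call these overexpressed, and neither CTD nor GWp is explained in the labels. The cells were grown at 25 °C in medium with 10% serum, and RNA of 18 to 30 nt was sequenced. There is no library of intact S2 cells and none of nbrKO cells with an empty construct, so an effect of transfection and one of NbrCTD cannot be told apart. Whether the cells of a group came from 1 clone is not given in the sources used here. Neither Nbr mRNA nor protein is read in RNA of this size, so the labels could not be checked by it.

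Nibbler is an exonuclease that shortens fly miRNAs from their 3′ end after they have been loaded into Argonaute proteins. Nucleotidyl transferases act on the same ends and add untemplated bases. In flies the uridyl transferase Tailor is known for tailing the hairpins of mirtrons, miRNAs whose precursors are excised by splicing. A tailed share therefore records how many ends carry added bases at the time of sampling, and not how long the miRNA is.

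The nbrKO library held 24005045 reads in all, and the NbrCTD library 26500155. Rows of miRNA arms took 54.7% and 55.8% of them. Bantam-3p alone made up 35.7% of the joined miRNA reads in nbrKO and 30.6% with NbrCTD. Marker miRNAs of muscle, neurons, gonads, early embryos and late stages summed to 286 miRNA RPM in nbrKO and 181 with NbrCTD, and 3 of the 24 listed (miR-6-3p, miR-318-3p and miR-994-5p) reached 100 reads in both. Here miRNA RPM means reads of an arm's leading 5′ isoform scaled to RPM over the reads of the joined arms.

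The table identifies each arm by its first 7 bases, printed with bases 2 to 7, most of the seed that pairs with targets, in capitals. Those shown first are a selection from the arms with the 12 largest falls or rises in tailed share, then come arms that share a seed and moved in opposite directions.
miR-2497-3p: cAACATT
miR-1012-3p: tTAGTCA
miR-1006-3p: tAAATTC
miR-965-3p: tAAGCGT
miR-2500-5p: tAAGGAA
miR-1007-3p: tAAGCTC
miR-998-3p: tAGCACC
miR-995-3p: tAGCACC
miR-11-3p: cATCACA
miR-2b-3p: tATCACA
miR-2c-3p: tATCACA

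In the coordinates of the deposited table, whose build is not given in the sources used here, the 5′ end of miR-998-3p is 3R:17447644 on the minus strand and that of miR-965-3p is 2L:243076 on the minus strand. By gene name in the Release 6 annotation, mir-998 and mir-11 lie in an intron of E2f1, mir-995 in an intron of Cdk2 and mir-965 in an intron of kis. The mirtrons mir-1006, mir-1007, mir-1008 and mir-1012 lie in introns of VhaSFD, Abca3, CG18004 and Lerp. By contrast, mir-2497 and mir-2500 overlap exons of her and CG3764.

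Tailed shares moved in both directions. An arm was called lower or higher where the exact Clopper-Pearson 95% intervals of its share in the libraries did not overlap. With NbrCTD, 37 of 117 arms were lower (31.6%), 22 were higher (18.8%) and 58 had overlapping intervals. Without any threshold, 70 were lower and 47 higher. The median share was 3.01% in nbrKO (quartiles 1.66% and 6.32%) and 2.73% with NbrCTD (quartiles 1.64% and 5.999%). Pooled over all joined reads, 2.76% were tailed in nbrKO and 2.62% with NbrCTD. Leaving out bantam-3p, which has a low share and many reads, these were 3.96% and 3.49%.

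**Figure D1:**
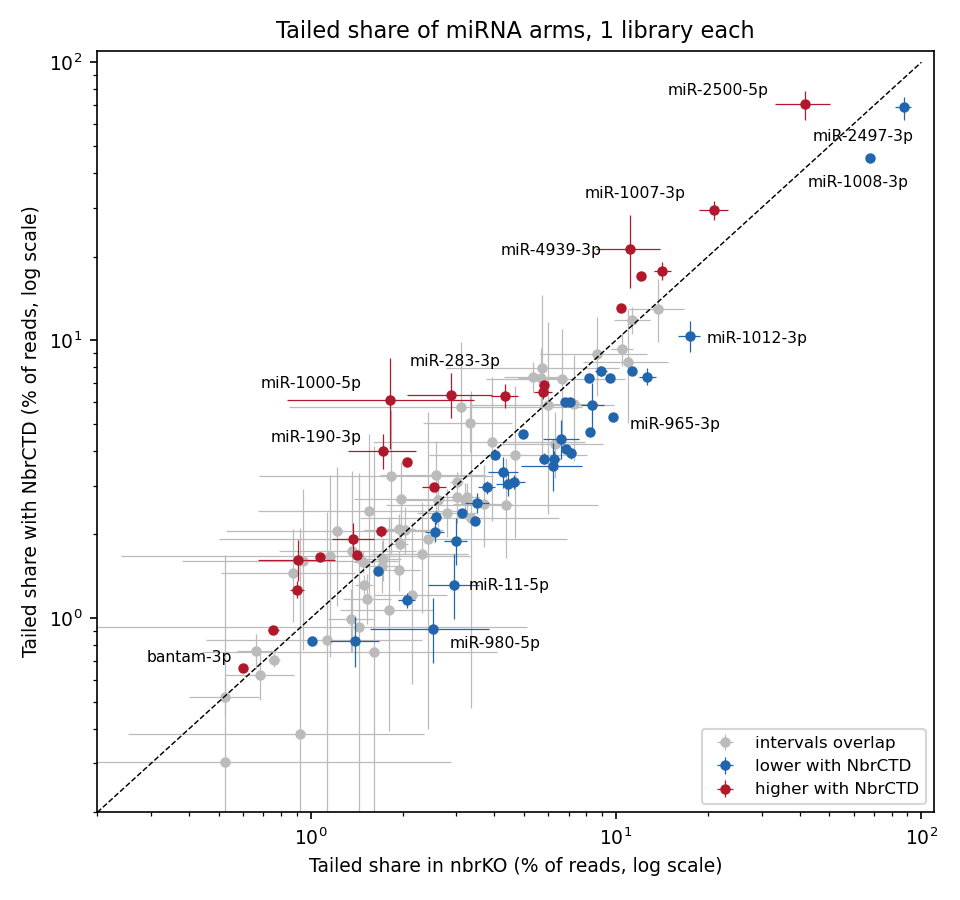
Tailed share of each arm in nbrKO (x axis, % of reads, log scale) against that with NbrCTD (y axis, % of reads, log scale), 1 library each, with exact 95% intervals that cover counting error only; the dashed line marks equal shares. Of the 117 arms, the 37 in blue were called lower, the 22 in red higher and the 58 in grey had overlapping intervals; miR-1009-3p, with 0 tailed reads in nbrKO, cannot be drawn on a log axis, and intervals that pass the lower edge are cut there.

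The largest falls were in mirtrons and in miR-2497-3p. In miR-1008-3p, 68.0% of 5149 reads were tailed in nbrKO (interval 66.7 to 69.3%) and 45.4% of 11562 reads with NbrCTD (44.5 to 46.3%). The share of miR-2497-3p went from 87.8% of 181 reads (82.2 to 92.2%) to 68.8% of 218 reads (62.2 to 74.9%). These were also the only measured arms in which most nbrKO reads were tailed. The mirtron arms miR-1012-3p and miR-1006-3p had 17.4% and 12.7% in nbrKO, and 10.3% and 7.40% with NbrCTD. All 4 were lower in NbrCTD by intervals that stand well apart.

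Of the 14 listed mirtron arms, 9 had enough reads, 4 were lower and 1 was higher, beside 31.6% lower and 18.8% higher over all arms. The remaining lower one, miR-1003-3p, went from 8.92% to 7.77%. The higher one, miR-1007-3p, went from 20.9% of 1224 reads (18.7 to 23.3%) to 29.4% of 1437 reads (27.0 to 31.8%). Intervals overlapped for miR-1005-3p, miR-1009-3p, miR-1013-3p and miR-1016-3p. The last of these stood at 11.3% in nbrKO and 11.8% with NbrCTD. The median log2 odds ratio of the 9 was 0.07 and that of all 117 arms -0.16. The median share of the 9 was 11.3% in nbrKO and 7.77% with NbrCTD, so these 2 medians point in different directions. As a group the measured mirtron arms thus held both the deepest fall and 1 of the largest rises.

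**Figure D2:**
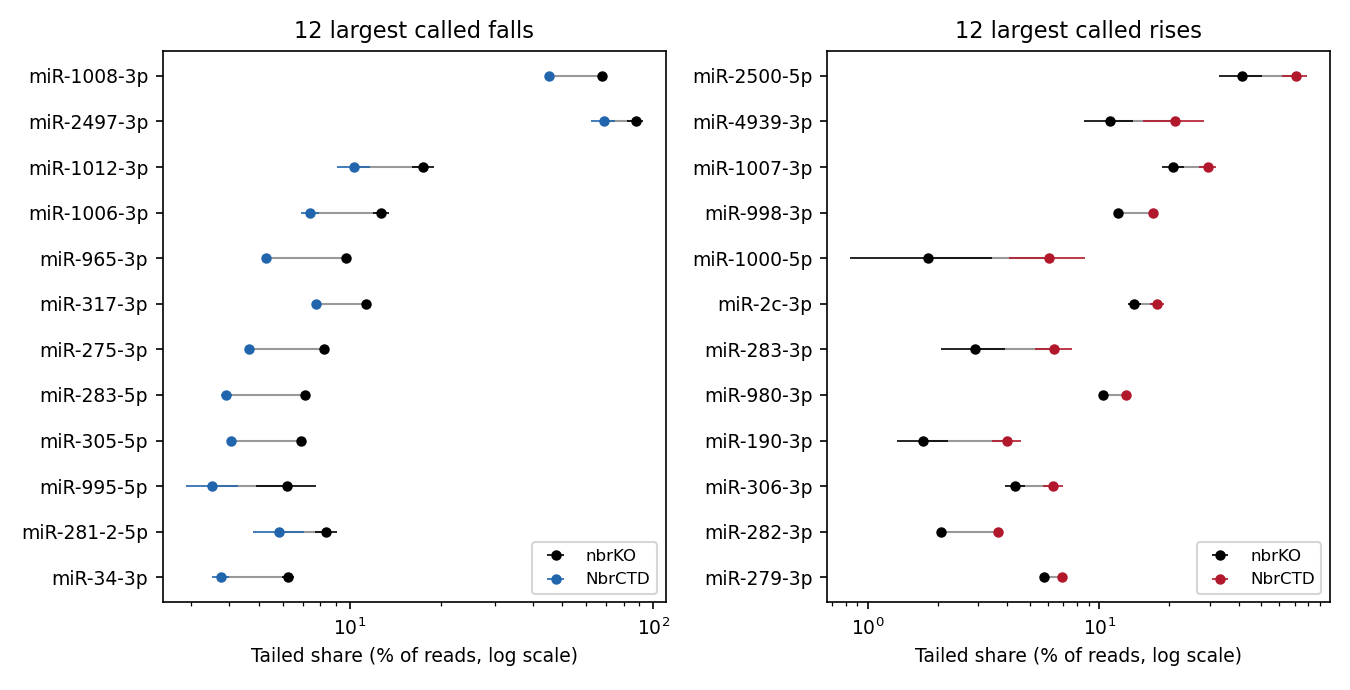
Tailed share (x axis, % of reads, log scale) of the 12 arms with the largest falls (left) and the 12 with the largest rises (right) in percentage points among called arms, in nbrKO (black) and with NbrCTD (colour), 1 library each, with exact 95% intervals. The falls run from miR-1008-3p (68.0% to 45.4%) to miR-34-3p (6.26% to 3.75%), and the rises from miR-2500-5p (41.5% to 70.9%) to miR-279-3p (5.80% to 6.90%).

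Among conventional miRNAs, miR-965-3p, which in the fly epidermis acts on string and wingless, fell from 9.74% of 46445 reads to 5.30% of 148636 reads. Among the 4 arms of neighbouring mir-275 and mir-305, the share was lower in 3 and higher in 0, beside 31.6% lower and 18.8% higher over all arms. There miR-275-3p, known in mosquitoes for a role in blood digestion, had 8.21% and then 4.66%, and miR-275-5p had 6.62% and then 4.40%. Its neighbour miR-305-5p, known for its part in fly intestinal stem cells, had 6.88% and then 4.06%. The passenger arm miR-305-3p, at 1.95% and 1.49%, had overlapping intervals.

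The cluster that holds mir-317, mir-277 and mir-34 divided. The share of miR-317-3p was 11.3% in nbrKO and 7.72% with NbrCTD. Its neighbour miR-34-5p, a miRNA of ageing and the nervous system and the classical Nibbler substrate, had 9.58% (9.45 to 9.72%) in nbrKO and 7.32% (7.16 to 7.47%) with NbrCTD. Its partner arm miR-34-3p had 6.26% and 3.75%. Both arms of mir-277, a regulator of branched-chain amino acid breakdown, went the other way. The share of miR-277-3p was 1.70% in nbrKO (1.63 to 1.78%) and 2.05% with NbrCTD (1.97 to 2.15%). That of miR-277-5p was 1.38% and 1.92%.

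Of the 10 listed Nibbler substrates reported in fly cells, 7 were measured: 4 were lower, 0 were higher and 3 had overlapping intervals, beside 31.6% lower and 18.8% higher over all arms. The median log2 odds ratio of the 7 was -0.41, that of miR-31a-5p, whose intervals overlapped, beside -0.16 over all arms. Their median share, however, was 6.88% in nbrKO and 7.32% with NbrCTD, beside 3.01% and 2.73% over all arms. The 2 medians of the 7 thus point in different directions. The lower ones were miR-34-5p, miR-317-3p, miR-305-5p and miR-11-3p. In miR-11-3p, which represses pro-apoptotic genes, the shares were 4.02% (3.95 to 4.08%) and 3.85% (3.78 to 3.92%), on 368916 and 302855 reads. A difference of this size could be called only because of that depth, and the intervals overlapped at 99%. Overlapping intervals were found for miR-31a-5p (10.9% and 8.37%), miR-263a-5p (5.70% and 7.34%) and miR-7-5p (0.684% and 0.627%). The other 3 (miR-10-5p, miR-100-5p and miR-3-3p) had under 100 reads in at least 1 library.

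The most abundant arms showed small differences with narrow intervals. In miR-14-3p, which acts in apoptosis and fat metabolism, the share fell from 3.46% to 2.24%. In miR-8-3p, an orthologue of the mammalian miR-200 miRNAs, it fell from 6.82% to 6.004%, and in miR-184-3p from 4.97% to 4.602%. Bantam-3p, which promotes growth and blocks apoptosis, was higher, at 0.599% (0.592 to 0.606%) in nbrKO and 0.662% (0.654 to 0.669%) with NbrCTD. Of the 10 most abundant joined arms of nbrKO, 3 were higher: bantam-3p, miR-13b-3p (1.07% and 1.66%) and miR-276a-3p (0.755% and 0.908%). The rest of the 10 were lower, beside 31.6% lower and 18.8% higher over all arms.

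Of the 22 higher arms, the largest difference was in miR-2500-5p, with 41.5% of 135 reads (33.1 to 50.3%) in nbrKO and 70.9% of 117 reads (61.8 to 79.0%) with NbrCTD. With the fewest reads of the higher arms in nbrKO, it lies just above the minimum of 100. The next largest, miR-4939-3p, had 11.1% of 568 reads and 21.3% of 169 reads, and its intervals overlapped at 99%. Much better covered was miR-998-3p, which in flies lowers Cbl and so supports EGFR signalling: 12.1% of 65317 reads (11.8 to 12.3%) and 17.1% of 65288 reads (16.8 to 17.3%). Its host transcript also makes miR-11-3p and miR-11-5p, both of which were lower, the former with intervals that overlapped at 99% and the latter at 2.96% and 1.31%.

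Other rises were in miR-980-3p, with 10.4% in nbrKO and 13.02% with NbrCTD, and in miR-279-3p, with 5.80% and 6.90%. The former is known from fly memory, and the latter restricts a class of sensory neurons together with miR-996-3p. The intervals of miR-996-3p lay close together, at 2.54% (2.31 to 2.78%) and 2.97% (2.87 to 3.07%). Several rises were in passenger arms, the arm of a precursor with fewer reads. These include miR-283-3p (2.89% and 6.36%), miR-190-3p (1.73% and 4.00%), miR-306-3p (4.32% and 6.31%) and miR-282-3p (2.07% and 3.63%). In miR-1000-5p, a miRNA of the nervous system, 1.82% of 495 reads and 6.07% of 461 reads were tailed, and its intervals overlapped at 99%.

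The libraries of the other constructs set the higher arms in context. In miR-998-3p the share was 17.1% with NbrCTD, 7.36% with Nbr(wt) and 9.58% with NbrCTD-GWp, so nbrKO, at 12.1%, lay between NbrCTD and the rest. The same order held in miR-2c-3p, with 17.8% for NbrCTD, 14.2% for nbrKO, 6.38% for Nbr(wt) and 6.46% for NbrCTD-GWp. In miR-980-3p the shares were 13.02%, 10.4%, 9.07% and 6.06% in that order of libraries. By contrast, in miR-283-3p the share was 2.89% in nbrKO and stood higher with Nbr(wt), at 5.01%, and with NbrCTD-GWp, at 5.36%, as well as with NbrCTD, at 6.36%. In miR-190-3p it was likewise 1.73% in nbrKO, and 3.32%, 3.08% and 4.00% with Nbr(wt), NbrCTD-GWp and NbrCTD. In miR-1007-3p it was 20.9% in nbrKO, 21.2% with Nbr(wt), 15.6% with NbrCTD-GWp and 29.4% with NbrCTD. For miR-2500-5p, NbrCTD-GWp gave 59.6%, and Nbr(wt) fell under the read minimum.

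Over all arms, NbrCTD had a higher share than Nbr(wt) in 45 of 117 (38.5%) and a lower one in 1 (0.855%), miR-1008-3p, at 45.4% against 51.5%. Against NbrCTD-GWp it was higher in 40 of 118 (33.9%) and lower in 4 (3.39%): miR-1008-3p, miR-1006-3p, miR-7-5p and miR-2a-2-5p. Several falls were also seen with the other constructs. In miR-1008-3p, at 68.0% in nbrKO, Nbr(wt) gave 51.5% and NbrCTD-GWp 51.4%. In miR-965-3p, at 9.74% in nbrKO, they gave 4.53% and 5.11%. In miR-34-5p, at 9.58% in nbrKO and 7.32% with NbrCTD, they gave 3.70% and 3.92%. Of the 37 arms lower than in nbrKO, NbrCTD was above Nbr(wt) in 24 and below in 1, and above NbrCTD-GWp in 18 and below in 3. These comparisons share the NbrCTD library with each other and with the comparison above, so their counts are not separate evidence.

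**Figure D3:**
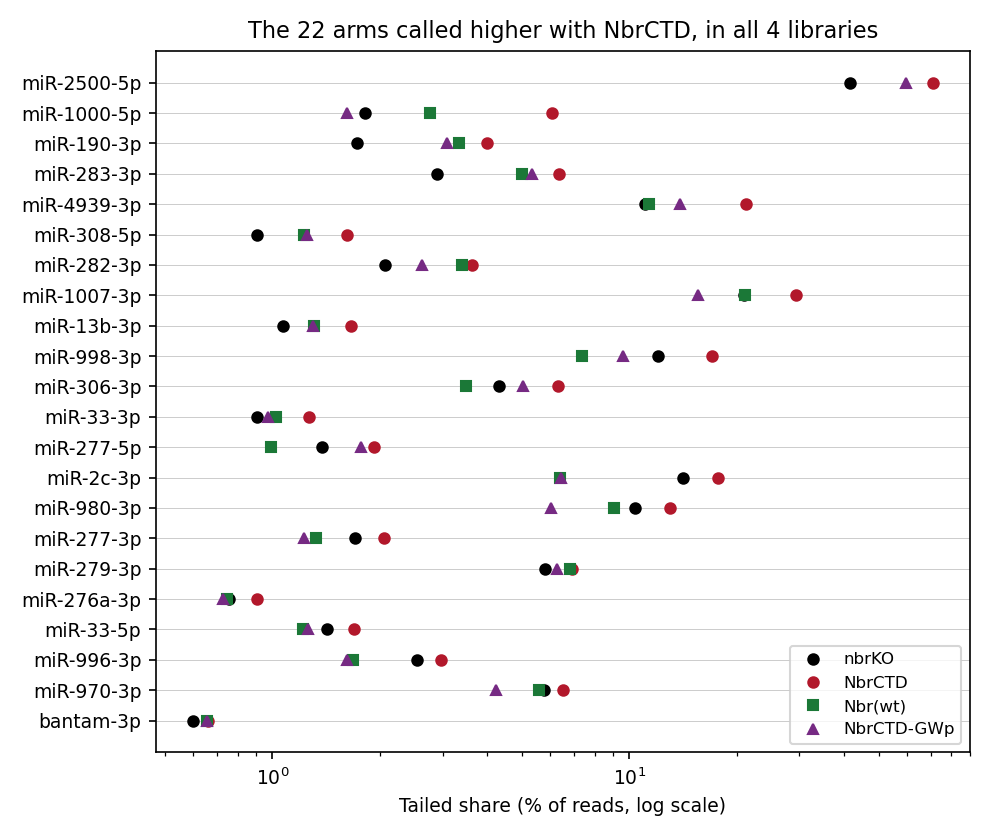
Tailed share (x axis, % of reads, log scale) of the 22 arms called higher with NbrCTD, in each of the 4 libraries; each symbol is 1 library and carries no error bar. The arms were chosen for NbrCTD lying above nbrKO; in miR-998-3p the libraries of Nbr(wt) and NbrCTD-GWp, at 7.36% and 9.58%, lie below nbrKO, and in miR-283-3p, at 5.01% and 5.36%, above it.

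A share can move through its tailed reads, its untailed reads or both. Of the 37 lower arms, the RPM of tailed reads was lower in 26 and higher in 11. Untailed reads were lower in 15 and higher in 22. In 11 of the 37 the tailed reads were lower and the untailed ones higher. These directions depend on the scaling: with the trimmed mean of M values, untailed reads were lower in 7 of the 37, and tailed reads in 22. In miR-275-3p tailed reads were at 623 and then 510 miRNA RPM and untailed ones at 6964 and then 10423. Both directions were the same under each scaling, but with the trimmed mean of M values the log2 fold of tailed reads was only -0.024. In miR-965-3p both rose, tailed reads from 354 to 544 and untailed reads from 3276 to 9729 miRNA RPM. In miR-34-5p both fell, from 1411 to 571 tailed and from 13312 to 7235 untailed.

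Of the 22 higher arms, tailed reads were higher in 14 and lower in 8, and untailed reads were lower in 15. With the trimmed mean of M values, tailed reads were lower in 5 and untailed reads in 9. In miR-998-3p tailed reads were higher under each scaling, at 617 and 770 miRNA RPM. Its untailed reads, at 4488 and 3743, were lower except with the trimmed mean of M values, where the log2 fold was 0.0043. In miR-980-3p both rose, from 520 to 1779 tailed and from 4503 to 11890 untailed. In miR-33-3p and miR-282-3p both fell. Across the 117 arms, the log2 odds ratio of the tailed share and the log2 fold of abundance had a Pearson r of -0.11 and a Spearman rho of -0.13, a description over arms that share the libraries.

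Both arms were measured for 42 precursors, and they did not always go together. Both were lower in 7, among them mir-34, mir-14, mir-11 and mir-275, and both were higher in 2, mir-277 and mir-33. In 5 precursors (mir-282, mir-283, mir-306, mir-980 and mir-996) the 5p arm was lower and the 3p arm higher. The reverse was seen in mir-308 only. In 8 precursors neither arm was called. Only the 5p arm was called, as lower, in 5, and only the 3p arm in others, as lower in 8 and as higher in 6. Over all 117 arms, 31.6% were lower and 18.8% higher. For mir-283 the 5p guide had 7.14% in nbrKO and 3.92% with NbrCTD, while the 3p passenger had 2.89% and 6.36%. For mir-980 it was the 3p guide that rose, from 10.4% to 13.02%, while the 5p passenger had 2.52% of 834 reads (1.56 to 3.82%) and 0.912% of 6137 reads (0.690 to 1.18%). For mir-282 the guide miR-282-5p had 1.01% and 0.828%, and its 3p passenger 2.07% and 3.63%.

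Arms with the same seed also parted. With the 7-base start tAGCACC, miR-995-3p was lower, at 7.07% and 5.999%, and miR-998-3p higher, at 12.1% and 17.1%. Of the 6 measured arms printed with ATCACA at bases 2 to 7, the K-box seed, miR-11-3p, miR-2a-1-3p and miR-2b-3p were lower and miR-2c-3p and miR-13b-3p higher, while the intervals of miR-13a-3p overlapped. The list of this seed family holds 8 measured arms, 4 lower, 2 higher and 2 not called, beside 31.6% lower and 18.8% higher over all arms. Its other members were miR-308-3p, lower at 3.77% and 2.95%, and miR-6-3p, at 1.13% and 0.833% with overlapping intervals. In miR-2b-3p the shares were 3.12% and 2.39%, and in miR-2c-3p 14.2% and 17.8%. Reads of these families were divided over near-identical loci, which leaves the value of any single member uncertain. In contrast, miR-275-3p and miR-306-5p, which share CAGGTA, were both lower. The pair that shares GACTAG, miR-996-3p and miR-279-3p, was higher in both members.

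Abundance was compared in 126 arms, those averaging 100 reads or more over both libraries. An arm was called where log2(miRNA RPM + 1) differed by 2-fold or more, a scale that understates changes of rare arms, and exact Poisson intervals did not overlap. With NbrCTD, 22 arms were lower (17.5%) and 11 higher (8.73%), and the median log2 fold over all 126 was -0.14. With the total taken as the authors did, lower and higher calls were 19 and 13. With median-of-ratios size factors they were 17 and 13, and the median moved by 0.14. With the trimmed mean of M values they were 15 and 17, and the median moved by 0.27. The 11 higher calls and 15 of the 22 lower ones were made under each of these scalings. In bulk RNA, fewer cells that make a miRNA and less of it per cell cannot be told apart.

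**Figure D4:**
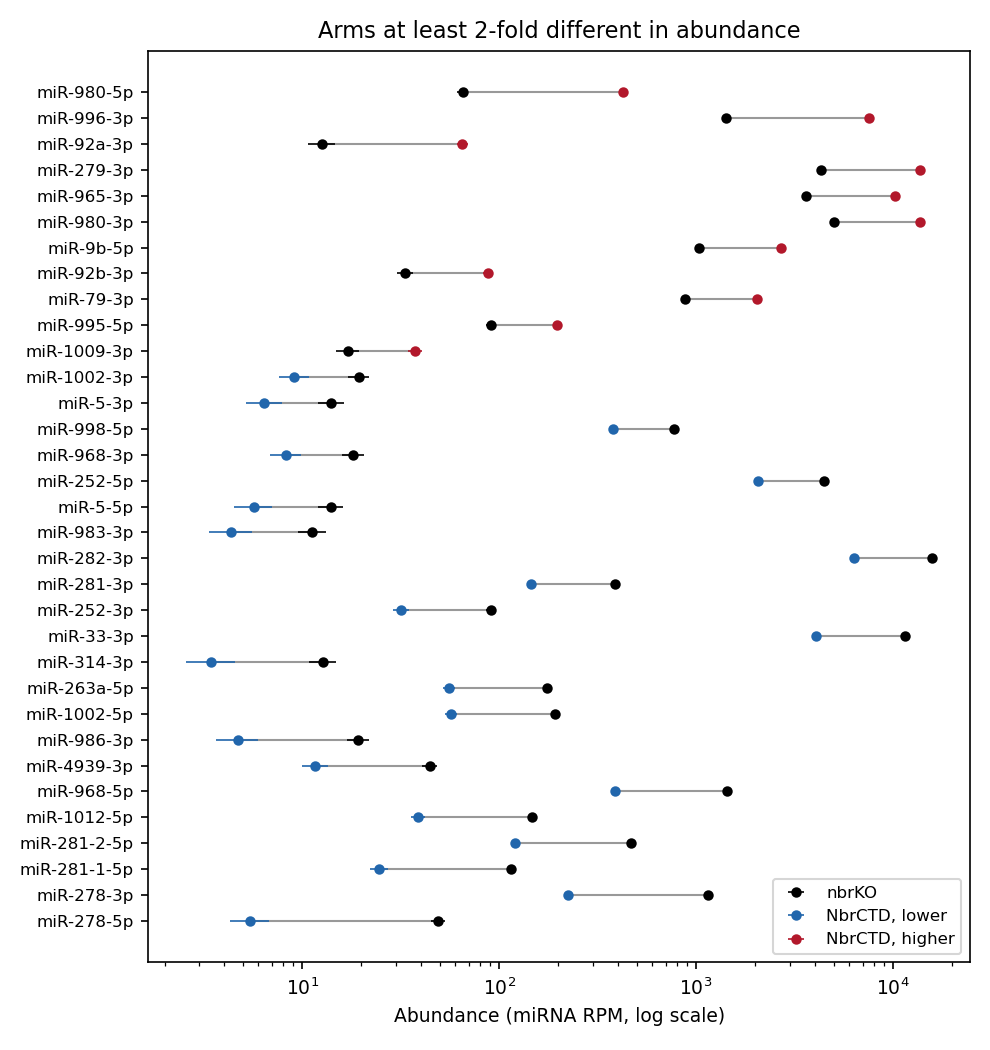
Abundance (x axis, miRNA RPM of the leading 5′ isoform, log scale) of the 33 arms at least 2-fold different between nbrKO (black) and NbrCTD (blue where lower, red where higher), 1 library each, with exact Poisson 95% intervals. Arms are ordered by log2 fold, from miR-980-5p (65.2 to 424) at the top to miR-278-5p (48.8 to 5.46) at the bottom.

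The lowest folds were in mir-278, a regulator of growth and energy balance in flies. Its 5p arm had 48.8 miRNA RPM in nbrKO and 5.46 with NbrCTD, a 7.72-fold fall on the RPM + 1 scale, and its 3p guide 1149 and 222.6, a 5.14-fold fall on that scale. The 3 arms of the mir-281 paralogs, in introns of Oda, were all lower: miR-281-1-5p at 115 and 24.7, miR-281-2-5p at 467 and 121, and miR-281-3p at 386 and 145. The 4 arms of mir-968 and mir-1002, neighbours on 2L, were lower as well, with miR-968-5p at 1430 and 390 and miR-1002-5p at 193 and 57.2. Of these 4, the 3p arms were not called under every scaling. Over all 126 arms, 17.5% were called lower in abundance.

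The mirtron passenger miR-1012-5p had 147 miRNA RPM in nbrKO and 38.8 with NbrCTD, and miR-4939-3p had 44.4 and 11.7. The remaining arm of the 8 lowest, miR-986-3p, had 19.2 and 4.70, and it fell short of 2-fold with a pseudocount of 10. Of the reported substrates, miR-263a-5p, which protects sensory bristles from apoptosis, had 176 and 55.6. Of the early embryo markers, miR-5-5p had 13.99 and 5.67, a call not made under every scaling.

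The highest fold was in miR-980-5p, with 65.2 miRNA RPM in nbrKO and 424 with NbrCTD, a 6.43-fold rise on the RPM + 1 scale. Its partner miR-980-3p had 5023 and 13669. The guides of the cluster of mir-279 and mir-996 rose together, miR-996-3p from 1413 to 7544 and miR-279-3p from 4307 to 13688. Their passenger arms did not pass the fold, with miR-996-5p at 522 and 494. In jigr1, whose intron holds mir-92a and mir-92b, miR-92a-3p had 12.6 and 64.8 and miR-92b-3p 33.4 and 88.0, a pair known from fly neuroblasts. In miR-965-3p the level went from 3629 to 10273, and in miR-9b-5p from 1037 to 2701.

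Of the arms with a lower tailed share, 4 were more abundant with NbrCTD and 2 less. Of those with a higher tailed share, 3 were more abundant and 3 less. Over all 126 arms compared in abundance, 8.73% were called higher and 17.5% lower. Most arms called in tailed share, 31 of the 37 lower and 16 of the 22 higher, did not pass the abundance threshold. The levels of miR-998-3p, for instance, were 5104 and 4512 miRNA RPM.

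The passenger to guide ratio, from reads of the leading 5′ isoform of each arm, could be followed in 61 precursors. A call needed at least a 2-fold change and non-overlapping intervals of the passenger share. The ratio was lower with NbrCTD in 10 precursors (16.4%) and higher in 5 (8.2%). Without any threshold it was lower in 41 and higher in 20. The largest fall was in mir-996, with a log2 change of the ratio of -2.49. Its passenger reads were 27.0% of the leading isoforms of both arms in nbrKO (26.4 to 27.5%) and 6.15% with NbrCTD (6.01 to 6.29%). Counted over all 5′ ends, miR-996-5p had 11047 reads in nbrKO and 11210 with NbrCTD, and miR-996-3p had 18810 and 111744. Passenger reads of mir-282 were 35.4% and 11.3%, those of mir-92a 32.9% and 12.2%, those of mir-965 11.6% and 4.16%, and those of mir-306 15.5% and 6.10%.

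Different arms moved in these precursors. In mir-996 and mir-965 the passenger stood at nearly equal levels in both libraries, with miR-965-5p at 478 and 446 miRNA RPM, while the guide was more abundant with NbrCTD. In mir-282 the passenger fell from 15768 to 6296 and the guide rose from 28783 to 49597. In mir-306 the passenger went from 709 to 419 and the guide from 3855 to 6458. In mir-1012 the share of passenger reads was 41.5% and 20.4%, with a passenger that fell. In mir-33, a lipid regulator within SREBP, the passenger share was 34.99% and 19.6%, with miR-33-3p at 11482 and 4060.

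Higher ratios were found in mir-263a, mir-980, mir-999, mir-966 and mir-2279. In mir-980 the passenger share was 1.28% in nbrKO and 3.01% with NbrCTD, and both arms were more abundant. In mir-999, within CASK, it was 1.91% and 4.40%. In mir-2279 it was 20.4% and 34.5%, and in mir-966 7.25% and 14.6%. The change in mir-263a, from 0.751% (0.438 to 1.2%) to 3.83% (2.63 to 5.36%), rests on 17 and 32 passenger reads.

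**Figure D5:**
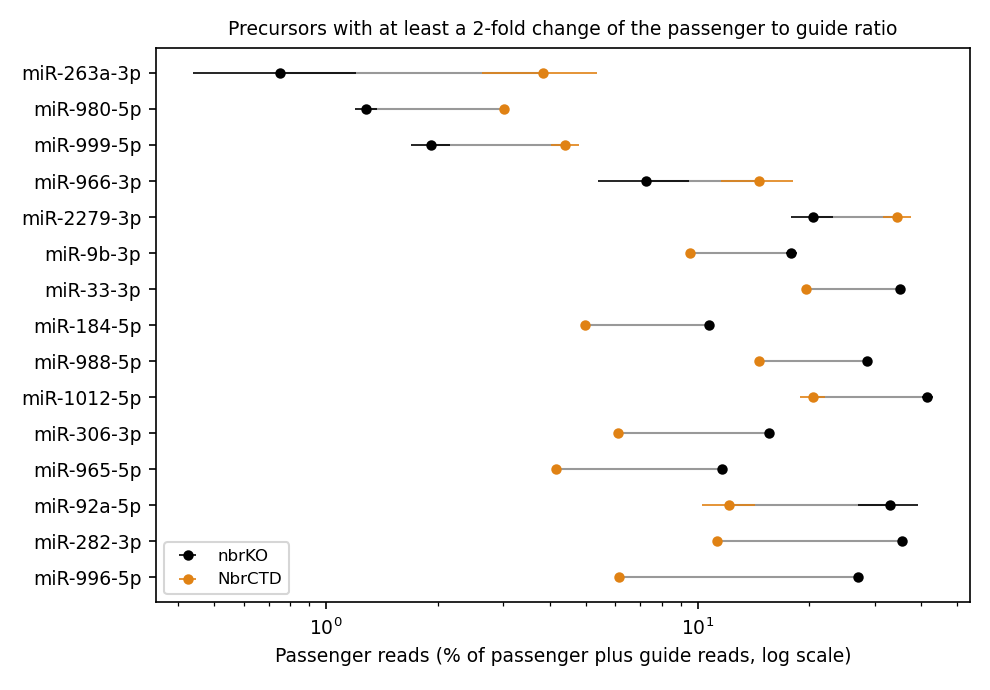
Passenger reads as a percentage of passenger plus guide reads (x axis, log scale) for the 15 precursors whose passenger to guide ratio changed at least 2-fold, named by their passenger arm, in nbrKO (black) and with NbrCTD (orange), 1 library each, with exact 95% intervals. Only reads of the leading 5′ isoform of each arm are counted. The top 5, from miR-263a-3p (0.751% to 3.83%) to miR-2279-3p (20.4% to 34.5%), are higher with NbrCTD, and the 10 below are lower, down to miR-996-5p (27.0% to 6.15%).

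The 5′ ends changed in few arms. The share of an arm's reads at the leading 5′ end was lower by at least 5 percentage points, with non-overlapping intervals, in 4 of 117 arms (3.42%) and higher in 4 (3.42%). The largest difference was in miR-2a-2-5p, from 52.0% of 87810 arm reads (51.6 to 52.3%) to 70.6% of 116507 (70.3 to 70.8%). This arm also had a lower tailed share, at 2.07% and 1.16%. Rises were also found in miR-281-3p (65.6% and 74.3%), miR-995-5p (69.8% and 77.8%) and miR-279-5p (54.6% and 62.0%).

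Falls were found in miR-2497-3p (92.3% and 76.2%), miR-252-3p (60.4% and 48.4%), miR-281-1-5p (93.9% and 88.6%) and miR-970-5p (97.0% and 92.0%). Each of these 4 had under 1000 reads at the leading end in at least 1 library. A minimum of 1000 reads therefore left them out and could not check them. The tailed share of miR-2497-3p counts reads of its leading 5′ end, and its fall came with this lower isoform share. Abundant arms differed in how uniform their 5′ end was, with bantam-3p at 98.6% and 98.4% and miR-2a-1-3p at 65.7% and 64.2%.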

How the data were processed

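The libraries hold RNA of 18 to 30 nt from S2 cells, made from 25 µg of total RNA depleted of 2S rRNA, with 4 random bases at the ligated adapter ends, per the labels' protocols. The authors deposited a table with, per the file headers, RPM values in GM and PM columns, read here as genome-matching reads and as prefix-matching reads with an untemplated 3′ tail, since the headers do not spell them out. The authors also deposited a fraction (0 to 1), read as the part of an arm's reads that start at the row's 5′ end. HTSeq 0.9.1 and cutadapt 1.2.1 appear in the submitters' processing notes. The aligner and genome build were not given in the sources used here. Chromosome names and positions show that the table does not use Release 6, so Release 6 gave only names, host genes and mature lengths, matched by gene name. The 4 columns of row types were not used.

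Dividing RPM by the worth of 1 read gave whole reads, within 0.01, for 94.5% to 95.9% of values in nbrKO and NbrCTD. The others are fractions from reads split over loci, so no count model was fitted, and reads were rounded for intervals. Loci with the same arm name were summed (8 arms), and miR-276a-5p includes miR-276b-5p. The joined arms held 12796783 reads in nbrKO and 14468677 with NbrCTD. Log2 odds ratios used 0.5 added reads. Passenger to guide ratios needed 100 reads of both arms and 20 of the passenger in at least 1 library. With 1 library per group there is no test and no p-value. Intervals are at 95% and cover counting error only, and PCR reads are not independent molecules. Python 3.11.15, SciPy 1.17.1, pandas 2.3.3, NumPy 2.4.6 and matplotlib 3.10.9 were used. The code for the calls was run on simulated data with counting error only, which cannot show how the calls hold between replicate libraries.

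The members, lists and rules were chosen with earlier results of these data known. Named arms are the 12 largest falls and rises in tailed share, the 8 lowest and highest abundance folds, the 6 largest changes each way in 5′ isoform share and in passenger to guide ratio, the 10 most abundant arms of nbrKO, measured reported substrates and mirtrons, partner arms and their clusters. Others, such as arms of mir-33, mir-308 and mir-999, and those named for a shared seed, were picked after their values were seen. The planned comparison of the last base and whole mature sequence was not run, because no such sequences were used here.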

Additional observations from a re-analysis of the deposited data

Results flagged for a closer look

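The miR-2a-2-3p arm stands outside the comparisons above, because its leading 5′ end differed between the libraries. In nbrKO the leading end is at 2L:19569518 on the minus strand and held 57.0% of the arm's reads (56.9 to 57.2%), on 329121 reads at that end. With NbrCTD the leading end lies 2 bases further in, at 2L:19569516, and held 51.9% of the arm's reads (51.8 to 52.1%), on 317272 reads at that end. With NbrCTD, reads of the arm at other ends can still carry the K-box seed, which the leading end of nbrKO has. The starts are printed because the leading ends differ in seed, with bases 2 to 7 in capitals.
miR-2a-2-3p in nbrKO: tATCACA
miR-2a-2-3p with NbrCTD: tCACAGC
With Nbr(wt) and NbrCTD-GWp the end of nbrKO led, with 59.8% and 57.3% of the arm's reads. The tailed share at the leading end was 1.01% in nbrKO and 3.39% with NbrCTD, a value of different 5′ isoforms and so not compared. The table gives only the leading end of each library, and reads of the miR-2 family were split between near-identical loci. At miR-2a-1-3p, with the 7-base start that miR-2a-2-3p has in nbrKO, the leading end held 65.7% and 64.2% of reads. The values of miR-2a-1-3p given above leave out reads assigned to mir-2a-2. The difference has no replicate and its cause was not tested.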

How the results depend on the processing

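No paired analysis was possible because each group has 1 library, and for the same reason no replicate could be left out. No called value among those recomputed reversed. With the trimmed mean of M values the median log2 fold of abundance was 0.12 in place of -0.14, and 4 named arms short of the threshold turned positive: bantam-3p (0.046), miR-8-3p (0.12), miR-2b-3p (0.13) and miR-13b-3p (0.027). The scalings of tailed and untailed reads were chosen after seeing the data. Counts of tailed share stayed between 33 and 37 lower and between 16 and 23 higher under other read minimums, 99% intervals, summed 5′ isoforms, and without the miR-2 and miR-13 families or arms with fractional reads. Asking for a log2 odds ratio of at least 0.5 left 22 lower and 11 higher. Abundance calls rose to 36 lower with no filter on low values and to 17 higher with the trimmed mean of M values. For 5′ isoforms, a difference of 10 percentage points left 2 lower and 1 higher, and a minimum of 1000 reads left 0 lower. For the passenger to guide ratio, any size of change with non-overlapping intervals gave 29 lower and 17 higher. Fewer arms pass a stricter threshold by construction. The intervals of miR-4939-3p, miR-1000-5p and miR-11-3p overlapped at 99%. In miR-282-5p the trimmed mean gave a log2 fold of 1.05, past the threshold. Depth kept 177 of the 294 arms out of the tailed share.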

Other observations

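Over all arms measured, 31.6% were called lower in tailed share and 18.8% higher. Arms of the 5p side were lower in 19 of 55 (34.5%) and higher in 5 (9.09%), and arms of the 3p side lower in 18 of 62 (29.0%) and higher in 17 (27.4%). Guides were lower in 27 of 56 (48.2%) and higher in 11 (19.6%), and passengers lower in 9 of 46 (19.6%) and higher in 7 (15.2%), with a median of 18408 reads in nbrKO for guides and 2964 for passengers. Arms whose annotated mature form has 23 bases were lower in 11 of 28 (39.3%) and higher in 3 (10.7%). Those of 21 or fewer bases were lower in 5 of 19 (26.3%) and higher in 7 (36.8%). By chromosome, 14 of the 32 arms on 2L were lower and 1, miR-306-3p, was higher. Of the 11 arms on 3L, 1 was lower and 7 were higher, among them bantam-3p, both arms of mir-33, miR-282-3p and miR-190-3p. In nbrKO the 3L arms had a median of 201774 reads and a median share of 1.01%. Over all arms these medians were 6675 reads and 3.01%. Partner arms and clusters share a transcript, so these arms are not independent, and the counts are a description without a test.

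Of 10 listed testis miRNAs, 7 were given in both libraries, and their levels summed to 6.25 miRNA RPM in nbrKO (4.96 to 7.78, on 80 reads) and 0.968 with NbrCTD (0.529 to 1.62, on 14 reads). Each of the 7 had fewer reads with NbrCTD. Early embryo markers summed to 88.9 and 46.0 miRNA RPM and ovary markers to 183 and 126, with intervals that did not overlap. Intervals overlapped for muscle markers, at 1.25 and 0.760 on 16 and 11 reads, and for the neuron marker, at 2.03 and 1.45 on 26 and 21 reads. Markers of late larval and adult tissue summed to 4.77 (3.65 to 6.12) and 6.08 (4.88 to 7.49), also with overlapping intervals. Among them let-7-5p and miR-125-5p had more reads with NbrCTD and miR-100-5p fewer. The part of the marker miRNAs in the other differences was not tested.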
